A study of Mus musculus with 3 samples.

Results

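The vacuolar H+-ATPase (V-ATPase) is the proton pump that acidifies endosomes and lysosomes in nearly every cell. Its cytosolic V1 sector hydrolyses ATP, and its V0 sector in the membrane carries the protons. In V1, the A and B subunits form the catalytic head, D and F form the central shaft that turns inside it, E and G form the peripheral stalks that hold the head still, and C and H join V1 to V0. In osteoclasts, the cells that resorb bone, the pump is also placed in the ruffled border, where it acidifies the space between cell and bone. Here the RNA of 8 genes of the V1 sector (Atp6v1a, Atp6v1b2, Atp6v1c1, Atp6v1d, Atp6v1e1, Atp6v1f, Atp6v1g1 and Atp6v1h) was followed in apoptotic bodies (ABs), the membrane-bound fragments that dying cells release. The genes were chosen by name, and all 8 had rows among the 15832 genes of the mRNA table. The table listed 38 of their 41 annotated transcripts.

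The series holds 3 libraries of ABs, whose RNA contents the study set out to profile, with a single library for each of BMM-ABs, pOC-ABs and, as the last stage, mOC-ABs. They came from cultures of C57BL/6 mouse bone marrow taken in postnatal week 11. Bone marrow macrophages (BMMs) were grown with macrophage colony-stimulating factor (M-CSF, 50 ng/ml) for 72 h. Preosteoclasts (pOCs) were BMMs given M-CSF (30 ng/ml) and RANKL (100 ng/ml), the cytokine that drives osteoclast formation, for 24 h. Mature osteoclasts (mOCs) had the same factors for at least 72 h. Per the labels, ABs of all 3 kinds of cell were induced with the bisphosphonate alendronate (500 μM, 12 h), whereas the methods of the study name staurosporine and a longer RANKL culture for mOCs. In the sample labels the titles and cell types are those of the cells, but the series is described as one of ABs, and ABs is what they are called here. Whether marrow of several mice was pooled is not stated. G1 compares pOC-ABs with BMM-ABs, G2 compares mOC-ABs with BMM-ABs, and G3 sets mOC-ABs against pOC-ABs, so that a ratio above 1 is higher at the later stage. Each pair of comparisons shares a library, so their values are not independent of each other.

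With 1 library per group there are no replicates, and no difference below could be compared with a spread between samples or tested. Reads of all listed transcripts of a gene were summed and are given as RPM, the reads of the gene in 1000000 reads of the mRNA table, which held 7387317 to 9100082 reads per library. Where 3 values stand in a row without a library, they are in the order BMM-ABs, pOC-ABs, mOC-ABs. Intervals in brackets after a ratio or share are exact binomial (Clopper-Pearson) 95% intervals that cover counting error only. The markers fitted the labels in part. The osteoclast markers, 12 of 13 with a row, summed to 620.0, 817 and 2551 RPM. Nfatc1 and Car2 made up most of the sum in mOC-ABs (1098 and 757 RPM). Acp5, which encodes tartrate-resistant acid phosphatase, had 88, 292 and 2157 reads. Clcn7 (777, 366 and 587 reads) and Ostm1 (322, 162 and 200 reads), the chloride-proton exchanger of the ruffled border and its partner, went the other way in G1 and G2. Calcr had no row, Oscar had 0 reads in BMM-ABs and Itgb3, the integrin β3 gene, had 6, 3 and 0 reads. The 10 macrophage markers summed to 2915, 1563 and 1440 RPM, and 0 of 10 were at 0. Markers of neutrophil, lymphoid, erythroid, endothelial, stromal and megakaryocyte cells summed to at most 5.84 RPM, with 18, 19 and 21 of 24 at 0 or without a row. The osteoclast sum was higher and the macrophage sum lower in the libraries with more V1 reads, and their part in the results below was not tested. In bulk RNA, fewer ABs of a kind and less RNA in each cannot be told apart.

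V1 reads were higher in pOC-ABs than in BMM-ABs and higher again in mOC-ABs. The 8 genes together had 13742, 15151 and 22161 reads, or 1510.1, 2051 and 2876 RPM. In G1 the sum was 1.36-fold higher (1.33 to 1.39), in G2 1.90-fold higher (1.86 to 1.95) and in G3 1.40-fold higher (1.37 to 1.43). Counted in reads, the catalytic head genes made up most of the difference in G2 and G3, and about their share of the reads in G1. Atp6v1a and Atp6v1b2 accounted for 58.0% of the added RPM in G1, 76.8% in G2 and 89.1% in G3. They held 57.4% of the V1 reads in BMM-ABs. Without these 2 genes, the log2 ratio of the sum went from 0.93 to 0.58 in G2 and from 0.49 to 0.14 in G3, and it was 0.44 with and without them in G1. Reads favour long transcripts, so these parts depend on the measure. By summed FPKM, which also divides reads by transcript length, Atp6v1a held 22.1% and Atp6v1b2 11.9% of the V1 total in BMM-ABs. Atp6v1f held 26.2% there. From BMM-ABs to pOC-ABs the FPKM of Atp6v1f went from 194 to 315. That step was larger than those of Atp6v1a (164 to 216) and Atp6v1b2 (87.7 to 110.4). The parts of each gene in the FPKM difference were not computed.

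**Figure D1:**
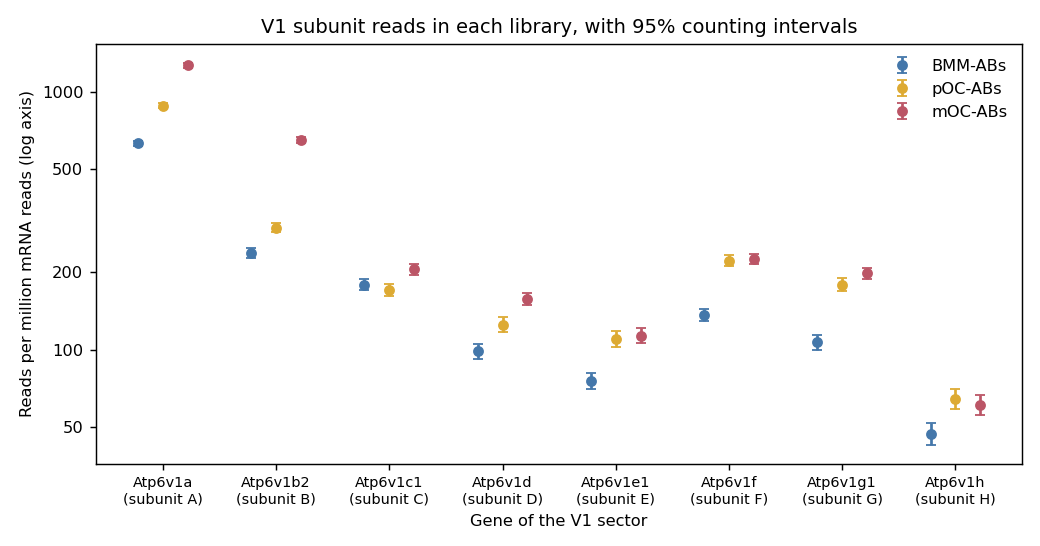
RPM (log axis) of the 8 V1 genes in the 3 libraries, marked by colour, with exact Poisson 95% counting intervals as bars. Atp6v1a (631 to 1267 RPM), Atp6v1b2 (237 to 649 RPM) and Atp6v1d (98.6 to 157 RPM) are higher at both steps, without overlap of intervals. Atp6v1e1, Atp6v1f, Atp6v1g1 and Atp6v1h differ between BMM-ABs and pOC-ABs but have overlapping intervals in pOC-ABs and mOC-ABs. The overlap is narrow for Atp6v1g1, whose G3 ratio interval excludes no difference.

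Atp6v1a encodes the A subunit, which binds and hydrolyses ATP, and lies on GRCm38 chr16:44085402-44139705 on the minus strand. It had 631, 884 and 1267 RPM. It held the most reads of the 8 genes in all 3 libraries, at 41.8%, 43.1% and 44.0% of the V1 reads. G1 gave a 1.40-fold higher level (1.35 to 1.45), G2 a 2.01-fold (1.94 to 2.08) and G3 a 1.43-fold higher level (1.39 to 1.48).

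The leading transcript of Atp6v1a was a different one in BMM-ABs than in pOC-ABs and mOC-ABs. Atp6v1a-201 had 5218, 1054 and 1292 reads. Its shares of the gene were 90.9%, 16.1% and 13.2%. Atp6v1a-202 had 408, 5372 and 8413 reads, with shares of 7.11%, 82.3% and 86.2%. The log2 ratio of Atp6v1a-201 was -2.01 in G1 (-2.10 to -1.91), and that of Atp6v1a-202 was 4.02 (3.87 to 4.17). In G2 the log2 ratios were -1.77 and 4.61. In G3 both transcripts were higher in mOC-ABs, at log2 ratios of 0.23 (0.11 to 0.35) and 0.59 (0.54 to 0.64). The shares of the pair therefore crossed between BMM-ABs and pOC-ABs, with little further shift to mOC-ABs.

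In GENCODE M21 both transcripts carry the same coding sequence of 1851 bases, have 15 exons each and share 13 of them exactly. They differ at the ends. Atp6v1a-202 starts 109 bases further upstream, ends 243 bases further downstream, and splices out of exon 1 at a site that differs by 14 bases. They share 3882 bases, which leaves 14 bases found only in Atp6v1a-201 and 352 found only in Atp6v1a-202. Reads within the shared bases cannot tell the pair apart, and how the counting shared them out is not given in the sources used here. The 4 remaining transcripts of the gene each held at most 1.60% of its reads.

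Promoter sequence was at hand for 4 of the 8 genes (Atp6v1a, Atp6v1d, Atp6v1e1 and Atp6v1f), as the 250 bases before the RefSeq start on GRCm38.p6. They were searched for CACGTG, the core that MiT/TFE transcription factors, regulators of lysosomal genes, are known to bind. CACGTG and TCACGTGA read the same on both strands, and every TCACGTGA contains a CACGTG. Only Atp6v1a among the 4 held CACGTG in this window, and it held it as TCACGTGA. Of 32851 promoters searched in the same way, 6.02% held CACGTG and 0.785% held TCACGTGA. The site is shown because Atp6v1a is also a gene whose leading transcripts differ at the 5′ end, with the 8 motif bases in capitals (30 bases, chr16:44139373-44139402, minus strand):
Atp6v1a motif site: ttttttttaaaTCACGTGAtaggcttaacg
Its last motif base lies 79 bases before the start of Atp6v1a-202, 125 bases before the RefSeq start and 188 bases before the start of Atp6v1a-201. It also lies in an intron of Atp6v1a-205 and Atp6v1a-206, which begin further upstream and had at most 20 reads in any library. The match describes the letters of this window and nothing about binding.

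Atp6v1b2 encodes the B2 subunit, the partner of A in the head, and lies on chr8:69088646-69113711 on the plus strand. It had 237, 297 and 649 RPM, and of the 8 genes it differed most between mOC-ABs and the other libraries. The level in mOC-ABs was 2.74-fold that of BMM-ABs (2.61 to 2.89) and 2.18-fold that of pOC-ABs (2.08 to 2.30), whereas G1 gave 1.26-fold (1.18 to 1.33). Atp6v1b2-201, the full-length coding transcript, held 97.4%, 96.9% and 98.7% of its reads. Slc18a1, a gene on the opposite strand that overlaps it, had 5, 7 and 72 reads, against 5002 reads of Atp6v1b2 in mOC-ABs. Whether the counting used strand is not stated, so reads of an overlap cannot be told apart.

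The shaft genes Atp6v1d and Atp6v1f followed different courses. Atp6v1d (subunit D, chr12:78840725-78861638, minus strand) had 98.6, 125 and 157 RPM. Each step was of about the same size, 1.27-fold in G1 (1.16 to 1.39) and 1.26-fold in G3 (1.15 to 1.37), which gave 1.60-fold in G2 (1.46 to 1.74). Atp6v1f (subunit F, chr6:29467718-29470512, plus strand) had 136, 221 and 225 RPM. It was 1.62-fold higher in G1 (1.51 to 1.75) and 1.65-fold higher in G2 (1.54 to 1.78), but its G3 interval included no difference (1.02-fold, 0.951 to 1.09). Nearly all reads came from 1 coding transcript of each gene, 97.1% to 99.1% of them from Atp6v1d-201 and 95.8% to 99.4% from Atp6v1f-201.

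The peripheral stalk genes Atp6v1e1 and Atp6v1g1 were higher in pOC-ABs than in BMM-ABs and differed less between pOC-ABs and mOC-ABs. Atp6v1g1 (subunit G1, chr4:63544772-63550750, plus strand) had 107, 179 and 198 RPM. It had the highest G1 ratio of the 8 genes, 1.68-fold (1.54 to 1.82), with 1.85-fold in G2 (1.71 to 2.01) and 1.11-fold in G3 (1.03 to 1.19). The annotation gives it a single transcript. Atp6v1e1 (subunit E1, chr6:120794305-120822793, minus strand) had 75.7, 110.2 and 113 RPM. It was 1.46-fold higher in G1 (1.31 to 1.61) and 1.498-fold higher in G2 (1.35 to 1.66), and its G3 interval included no difference (1.03-fold, 0.935 to 1.13). Atp6v1e1-203, which retains an intron and encodes no protein, had 93, 22 and 39 reads. Its share of the gene was 13.5% in BMM-ABs, and 2.70% and 4.46% in the later stages. Atp6v1e1-201, the coding transcript, held 79.8%, 89.2% and 90.2%.

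Atp6v1c1 encodes subunit C1, which joins the stalks to V0 and is released when the pump comes apart, and lies on chr15:38661933-38692446 on the plus strand. It had the smallest G2 ratio of the 8 genes. Its levels were 178, 170.2 and 205 RPM. It was 1.15-fold higher in G2 (1.07 to 1.23) and 1.21-fold higher in G3 (1.12 to 1.30), and its G1 interval included no difference (0.953-fold, 0.885 to 1.03). The direction of these ratios depended on which transcripts were counted. Atp6v1c1-205, a transcript with a retained intron, had 290, 113 and 541 reads, which was 17.9%, 8.99% and 34.2% of the gene. Its log2 ratio was -1.06 in G1 (-1.39 to -0.74), whereas G2 gave 1.14 (0.93 to 1.35) and G3 gave 2.20 (1.90 to 2.50). The coding transcript Atp6v1c1-201 had 1266, 1088 and 974 reads. With protein-coding transcripts alone, the log2 ratio of Atp6v1c1 turned from -0.07 to 0.07 in G1, from 0.20 to -0.15 in G2 and from 0.27 to -0.23 in G3, with G1 intervals that included no difference in both counts. By the counts per transcript, the higher total in mOC-ABs thus lay in the retained-intron transcript. Of the 2071 bases of Atp6v1c1-201, 1962 are also in Atp6v1c1-205, and reads within them cannot tell the pair apart. How the counting shared them out is not given, so the split between these transcripts is uncertain.

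Atp6v1h encodes subunit H, which regulates the coupling of V1 to V0 and holds back ATP hydrolysis when V1 is free, and lies on chr1:5070018-5162529 on the plus strand. It had the lowest reads of the 8 genes, at 47.3, 64.4 and 61.3 RPM. It was 1.36-fold higher in G1 (1.19 to 1.56) and 1.30-fold higher in G2 (1.13 to 1.48), and its G3 interval included no difference (0.951-fold, 0.835 to 1.08). Its transcripts differed far more than its total. The coding transcript Atp6v1h-201 had 8, 96 and 290 reads, which was 1.86% (0.807 to 3.63), 20.2% (16.7 to 24.1) and 61.4% (56.9 to 65.9) of the gene. Atp6v1h-203 and Atp6v1h-206, which retain introns, had 110, 38 and 27 reads and 67, 98 and 3 reads. Their shares were 25.6%, 7.98% and 5.72% for Atp6v1h-203 and 15.6%, 20.6% and 0.636% for Atp6v1h-206. Atp6v1h-205, a coding transcript, had 158, 154 and 105 reads and led the gene in BMM-ABs and pOC-ABs, with shares of 36.7% and 32.4%. In mOC-ABs, Atp6v1h-201 led. With protein-coding transcripts alone, the gene was 1.61-fold higher in G1 (1.35 to 1.93), G2 gave 2.25-fold (1.91 to 2.66) and G3 1.40-fold (1.20 to 1.62), so its G3 direction turned with the transcripts counted.

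A pair of Atp6v1h exons, each with a length in bases that 3 divides, are printed because coding transcripts whose reads differed have or lack them. Only lengths were counted, and where codons begin within the exons was not examined. Exons are counted from 1 at the 5′ end of Atp6v1h-201, which has 14. Atp6v1h-205 lacks exon 11 (126 bases, as long as 42 codons, chr1:5135812-5135937). Atp6v1h-204 lacks exon 7 (54 bases, as long as 18 codons, chr1:5101070-5101123). A further coding transcript, Atp6v1h-207 (chr1:5083110-5095728), ends before both exons. It had 20, 46 and 36 reads, at most 9.66% of the gene. The exons are given on the plus strand of GRCm38, taken from the GENCODE M21 transcripts:
Atp6v1h exon 7: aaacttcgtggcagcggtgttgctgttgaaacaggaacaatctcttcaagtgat
Atp6v1h exon 11: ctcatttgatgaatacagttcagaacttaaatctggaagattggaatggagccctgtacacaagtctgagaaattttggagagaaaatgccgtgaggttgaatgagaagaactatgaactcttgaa
Atp6v1h-204 had 40 reads in BMM-ABs and 0 in both later stages, and like Atp6v1h-207 it was named after its values were seen. Against a floor of 3 reads in each library, it was at least 10.8-fold lower in G1 and at least 11.3-fold lower in G2. This bound takes the 40 reads as exact and is not a confidence limit, and the counting intervals of its log2 ratios reached up to -3.07 in G1 and -3.13 in G2. All 1811 bases of Atp6v1h-204 also lie in Atp6v1h-201, so only reads across the junction that skips exon 7 set it apart. How the counting shared out the other reads is not given, so the loss of its reads could also lie in that sharing, which was not tested. In BMM-ABs Atp6v1h-205, which lacks exon 11, held more reads than the full-length Atp6v1h-201, and in mOC-ABs the order was turned. The pair differ in more than exon 11. Atp6v1h-205 has another first exon (chr1:5070018-5070144, against chr1:5083080-5083278) and ends at base 5162340, against 5162529. They share 1535 bases, and reads within these cannot tell them apart. Which of these differences the reads reflect was not tested.

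**Figure D2:**
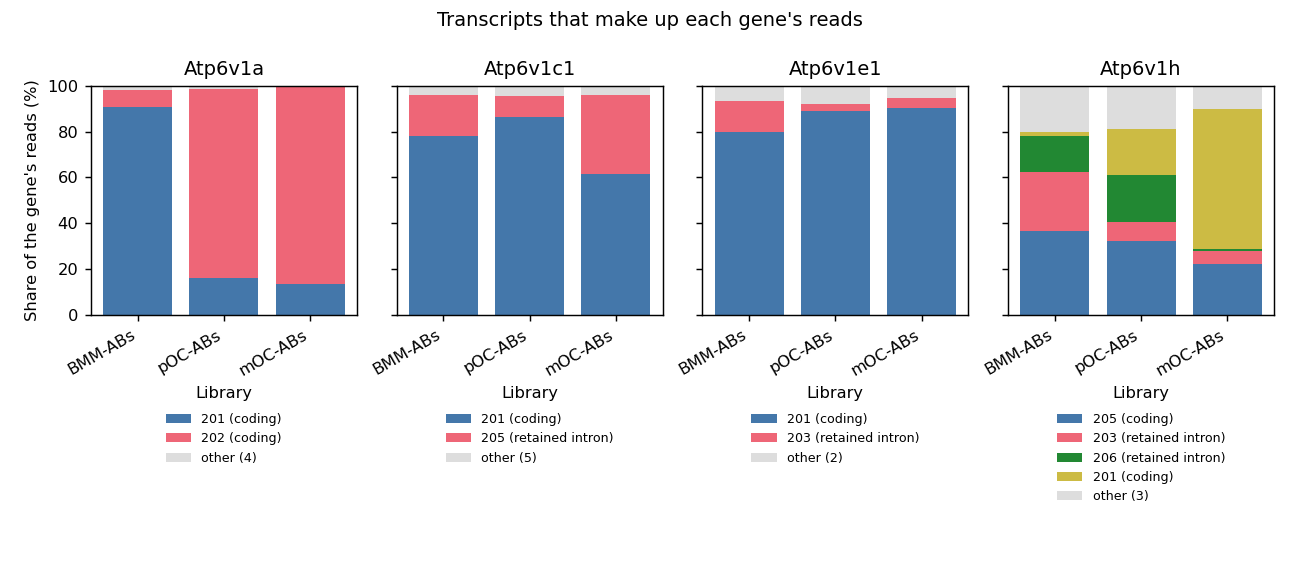
Share of each gene's reads (%) held by its transcripts in the 3 libraries for the 4 genes with more than 1 transcript at 10% or above. Colours mark transcripts by the digits that end their names, and light grey is the sum of the others. The bars of Atp6v1a turn from Atp6v1a-201 (90.9%) in BMM-ABs to Atp6v1a-202 (86.2%) in mOC-ABs, and Atp6v1h-201 goes from 1.86% to 61.4%.

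Of the 7 genes with more than 1 listed transcript, 2 (Atp6v1a and Atp6v1h) had a different leading transcript in different libraries. Among 8522 genes with at least 100 reads and more than 1 transcript, 26.7% did, so the count of the V1 genes was near that of all genes. Transcripts that GENCODE does not class as protein-coding, mostly retained introns, held 5.94% of V1 reads in BMM-ABs (5.55 to 6.35), against 3.58% in pOC-ABs (3.29 to 3.89) and 3.66% in mOC-ABs (3.41 to 3.91). Over all protein-coding genes the shares were 9.77%, 8.50% and 8.07%. The V1 genes were uneven in this. Atp6v1f and Atp6v1g1 have no listed transcript of this kind, in BMM-ABs the share reached 47.4% for Atp6v1h, and in mOC-ABs the highest share was that of Atp6v1c1 (38.1%).

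Counted against all genes, the V1 genes were more often higher at the later stage. A gene entered the background with at least 20 reads over the 3 libraries, which 12702 genes and all 8 V1 genes had. In G1, 7 of 8 V1 genes were higher, against 48.4% of all genes. In G2, 8 of 8 were higher, against 45.4%, and in G3, 7 of 8, against 45.5%. The counting interval lay above no difference for 7 of 8 genes in G1 (26.1% of all genes), 8 of 8 in G2 (23.8%) and 5 of 8 in G3 (21.9%). Intervals narrow with more reads, and each V1 gene had at least 430 reads in every library, whereas the background begins at 20 over all 3. These last shares are therefore not matched for reads. From G1 to G3 the median log2 ratios of the 8 genes were 0.47, 0.70 and 0.21, beside -0.02, -0.05 and -0.05 for all genes.

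More of the V1 genes passed 1.5-fold in G2 than in G1 or G3. Over 1.5-fold higher in G1 were 2 of 8 (Atp6v1f and Atp6v1g1), against 13.9% of all genes, and over 1.5-fold lower were 0 of 8, against 15.6%. In G2, 5 of 8 were over 1.5-fold higher (Atp6v1a, Atp6v1b2, Atp6v1d, Atp6v1f and Atp6v1g1), against 10.3%, and 0 of 8 were over 1.5-fold lower, against 19.5%. In G3, 1 of 8 was over 1.5-fold higher (Atp6v1b2), against 8.72%, and 0 of 8 were over 1.5-fold lower, against 15.3%. For a set of 8 genes, the 1.5-fold counts in G1 and G3 were near the shares of all genes. At the limit of the study, over 2-fold higher, there were 0 of 8 in G1 (4.84% of all genes), 2 of 8 in G2 (4.12%, Atp6v1a and Atp6v1b2) and 1 of 8 in G3 (3.48%, Atp6v1b2). Just inside and outside these limits in G2 lay Atp6v1a, at 2.01-fold, and Atp6v1e1, at 1.498-fold. With reads scaled to the total of both RNA tables, the share of higher calls among all genes over 1.5-fold apart went from 47.0% to 25.0% in G1 and from 36.3% to 48.5% in G3. At that scaling, 0 of 8 V1 genes were over 1.5-fold higher in G1, against 8.25% of all genes. There were 4 of 8 in G2, against 7.92%, and 2 of 8 in G3, against 11.6%.

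**Figure D3:**
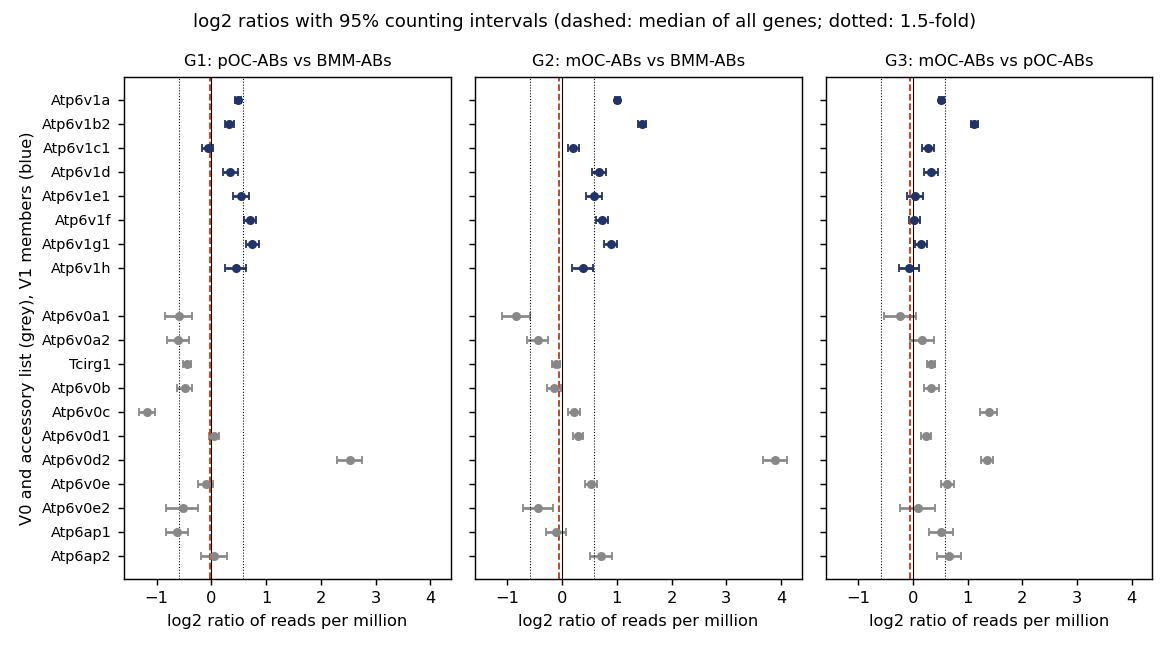
log2 ratios of RPM in G1, G2 and G3 for the 8 V1 genes (blue) and the 11 V0 and accessory genes with rows (grey), each with its exact binomial 95% counting interval. The dashed line is the median of all genes and the dotted lines mark 1.5-fold. In G1 the V1 genes lie to the right of most V0 genes, and Atp6v0d2 stands alone at 2.52.

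Per transcript length, the order of the V1 genes had the same ends in each library. FPKM, which divides reads by transcript length as well as by the library total, was summed over the transcripts of a gene for this, since reads alone favour long transcripts. Atp6v1f led, at an FPKM of 194, 315 and 320.3, and was followed by Atp6v1a at 164, 216 and 307. In mOC-ABs the counting intervals of these genes overlapped. The lowest were Atp6v1h, at 23.5, 32.6 and 33.5, and Atp6v1d, at 30.1, 36.5 and 44.8, whose intervals overlapped in pOC-ABs. The highest level was 8.24, 9.64 and 9.55 times the lowest.

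The middle of the order was not the same in the 3 libraries. In BMM-ABs, Atp6v1g1 (94.0), Atp6v1c1 and Atp6v1b2 (87.7) came next, with neighbours that overlapped, before Atp6v1e1 (59.0). In pOC-ABs, Atp6v1g1 (158) was followed by Atp6v1b2 (110.4), Atp6v1e1 (92.2) and Atp6v1c1 (86.9), the last pair overlapping. In mOC-ABs, Atp6v1b2 (237) passed Atp6v1g1 (174), and Atp6v1c1 (92.0) and Atp6v1e1 (90.1) overlapped. Atp6v1b2 thus held the fifth place in BMM-ABs, where its interval overlapped those of Atp6v1c1 and Atp6v1g1, and the third in mOC-ABs. With protein-coding transcripts only, Atp6v1b2 stood above Atp6v1c1 in BMM-ABs (FPKM 81.5 against 73.1).

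**Figure D4:**
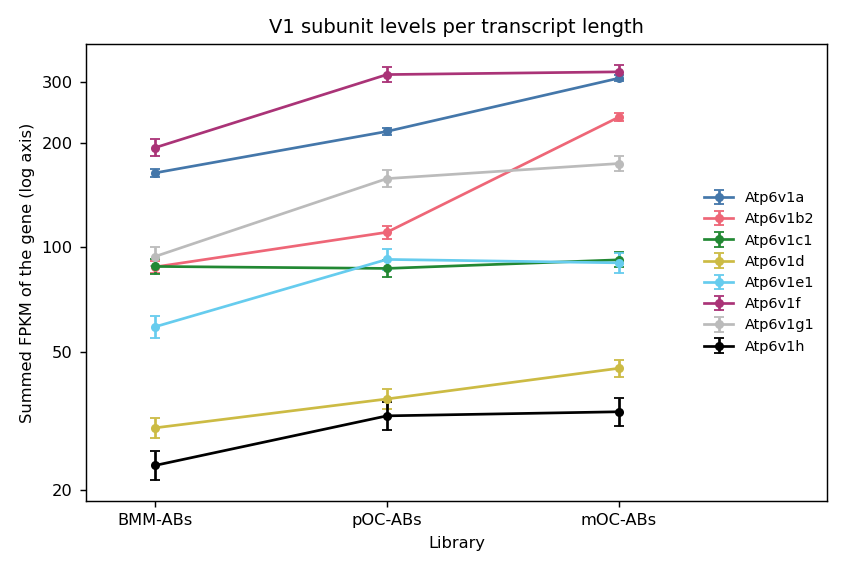
Summed FPKM (log axis) of each V1 gene in the 3 libraries, with bars for the 95% counting interval. Atp6v1f and Atp6v1a are at the top and Atp6v1d and Atp6v1h at the bottom in each library, while Atp6v1b2 goes from 87.7 to 237.

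The genes of the membrane sector did not follow the same course in G1 and G2, whereas in G3 most genes of both sectors were higher. A list of 12 V0 and accessory genes had rows for 11, and Atp6v0a4 had none. In G1, 3 of 11 were higher and 8 lower, with a median log2 ratio of -0.49. In G2, 5 were higher and 6 lower, with a median of -0.11. In G3, 10 were higher and 1 lower, with a median of 0.34, beside 7 of 8 V1 genes higher and a median of 0.21. Of all genes, 48.4% were higher in G1, 45.4% in G2 and 45.5% in G3. Tcirg1, the a3 subunit of the osteoclast pump, had 3890, 2316 and 3041 reads, at log2 ratios of -0.45 in G1 and -0.12 in G2. Atp6v0d2, a d subunit known from osteoclasts, had 187, 873 and 2338 reads, and its log2 ratio of 3.88 in G2 (3.67 to 4.11) was above that of any V1 gene. Atp6v0a1 had the lowest G2 ratio of the list, -0.84 (-1.10 to -0.58), with 392, 210 and 186 reads.

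The balance of V1 to V0 reads differed between BMM-ABs and the other libraries. There were 1.14 reads of the 8 V1 genes for each read of the V0 list in BMM-ABs (1.11 to 1.17), against 1.84 in pOC-ABs (1.79 to 1.89) and 1.72 in mOC-ABs (1.69 to 1.76). Without Atp6v0d2 the values were 1.15, 2.05 and 2.11, so that pOC-ABs and mOC-ABs changed places. By summed FPKM they were 0.833, 1.37 and 1.16. This ratio is taken within each library and does not depend on the library total. Of the 5 other V1 isoforms, which are largely restricted to particular tissues, only Atp6v1g2 had a row, with 11, 15 and 9 reads, and the other 4 had none.

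Genes that act on the assembly of the pump showed no common direction. Of 9 such genes, 4 were higher in G1, 4 in G2 and 5 in G3, with median log2 ratios of -0.06, -0.02 and 0.04. Dmxl1, a subunit of the RAVE-like complex that brings V1 and V0 together, had 1562, 2599 and 4792 reads, and its log2 ratio was 1.04 in G1 and 1.86 in G2 (1.77 to 1.94). Its paralogue Dmxl2 had 573, 417 and 388 reads and the lowest G2 ratio of the list, -0.32 (-0.51 to -0.13). Of the 4 MiT/TFE factors, 1 was higher in G2. Mitf, which is known to act in osteoclasts, had 736, 700 and 932 reads (G2 log2 ratio 0.58, 0.44 to 0.72). Tfeb, a regulator of lysosomal genes, had 545, 225 and 223 reads (G2 log2 ratio -1.05, -1.28 to -0.82).

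Among 3604 protein-coding genes with at least 500 reads per library on average, the 5 whose log2 levels over the 3 libraries lay nearest to those of the summed V1 genes were Spred1, Myo1d, Gpsm3, Ccl9 and Med15. Likeness was the Euclidean distance between centred log2 RPM, over 3 libraries. Spred1, at a distance of 0.028, had 276, 385 and 537 RPM, and Med15, at 0.096, had 101, 148 and 192. With 3 points, such nearness describes these libraries only.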

How the data were processed

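The 3 libraries were paired-end, made from poly-A RNA of ABs and sequenced on an Illumina instrument. The authors deposited read counts per transcript and FPKM for mRNAs and lncRNAs, and junction read counts with a score (SRPBM) for circRNAs. The labels' processing notes name FastQC, HISAT2, StringTie and GRCm38, without roles or versions. The counting rule for reads shared by transcripts or by gene copies, and the strand setting, are not given in the sources used here. The total of the mRNA table lay behind the deposited mRNA FPKM and was therefore used to scale the counts to 1000000 reads (RPM). The FPKM of lncRNAs and the circRNA score are on other scales and were not used.

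Columns named 0 h, 24 h and 72 h were taken as BMM-ABs, pOC-ABs and mOC-ABs by the RANKL times in the labels. GENCODE M21 gave each transcript its gene (56440 of 56651 matched), counts were summed per gene, and log2 ratios were computed in Python 3.11.15 (pandas 2.3.3, numpy 2.4.6, scipy 1.17.1). The script was tested on simulated data. The depth of 7387317 to 9100082 mRNA reads makes 3 reads, the limit that a count of 0 allows, 0.330 to 0.406 RPM. Reads carry no molecular identifiers, so intervals and limits cover counting error only. No test, p-value or FDR is given, since each group is 1 library. The named transcripts hold at least 10% of their gene's reads in a library, except Atp6v1h-204, Atp6v1h-207, Atp6v1a-205 and Atp6v1a-206, which were named after their values were seen. From the V0, assembly and MiT/TFE lists, the genes with the highest and lowest G2 ratio were named, besides Tcirg1. The 8 genes, the lists and these rules were chosen with earlier results of these data known. Alternatives were other scalings (total of both tables, median-of-ratios size factors, upper quartile at percentile 75, TMM in edgeR 4.0.16 on R 4.3.3), summed FPKM, protein-coding transcripts only, a pseudocount of 1 read, and other minimum reads.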

Additional observations from a re-analysis of the deposited data

Results flagged for a closer look

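Signals outside the mRNA table lay over 3 of the V1 genes. The NONCODE lncRNA NONMMUT065904.2, inside Atp6v1b2 (chr8:69095018-69096894), had 14 reads in BMM-ABs, against 17 in pOC-ABs and 13 in mOC-ABs. A second one there, NONMMUT065906.2 (chr8:69110198-69111921), had 17, 7 and 15 reads. Both are above the limit of 3 reads that a count of 0 allows, and against the 2153 to 5002 reads of Atp6v1b2 they are few. At 2 more genes the lncRNAs had under 20 reads in all. NONMMUT148504.1, which overlaps the start of Atp6v1g1 (chr4:63544080-63544791), had 3, 8 and 0 reads, and NONMMUT000046.2, inside Atp6v1h (chr1:5156597-5158506), had 5 in each library. The circRNA of Atp6v1h whose back-splice junction joins exon 6 to exon 3 (chr1:5089009-5098133) had 3, 0 and 4 junction reads in the 3 libraries in the same order, with 4 just above that limit. A circRNA of the same gene that ends with exon 7 instead had 3, 3 and 0. There are no control libraries against which these reads could be set.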

How the results depend on the processing

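No paired analysis was possible because each group is 1 library. The summed V1 log2 ratio, 0.44 in G1, 0.93 in G2 and 0.49 in G3, kept its direction under every alternative tried. It left its counting interval with the total of both tables (0.24, 0.83 and 0.59), with summed FPKM (0.50, 0.81 and 0.31), with protein-coding transcripts only (0.48 in G1, 0.96 in G2), with median-of-ratios size factors (0.97 in G2, 0.53 in G3), with the upper quartile (0.97 in G2) and with TMM (0.98 in G2, 0.53 in G3). Chosen after seeing the data were sums without Atp6v1a (0.87 in G2), without Atp6v1b2 (0.81 in G2, 0.34 in G3) and without both (0.58 in G2, 0.14 in G3). The median V1 log2 ratio in G1 moved from 0.47 to 0.27 with both tables and to 0.59 with protein-coding transcripts only. The number of V1 genes over 1.5-fold higher in G1 went from 2 to 0 with both tables and to 4 with protein-coding transcripts only, and in G3 from 1 to 2 with both tables. Of all genes, 8.25% in G1 and 11.6% in G3 were over 1.5-fold higher with both tables. No such share was taken for protein-coding transcripts only. Scaling to both tables, which differ in their lncRNA share (28.5% to 37.7% of reads), lowered the median of all genes by 0.20 in G1. Relative to all genes, the median V1 ratio was 0.49, 0.75 and 0.26, which a scaling cannot alter, since it moves every gene alike. Of 168 ratios of single genes under 7 alternatives, 142 stayed within the counting interval, 26 left it, and 7 changed sign, all of Atp6v1c1, Atp6v1e1 or Atp6v1h and none past 1.5-fold. The share of all genes over 2-fold higher was 8.77%, 7.64% and 6.94% in G1, G2 and G3 with no minimum of reads, and 2.82%, 2.53% and 1.88% with at least 100. With protein-coding transcripts only, 2 genes changed places in the FPKM order in BMM-ABs (Atp6v1b2 and Atp6v1c1) and 2 in mOC-ABs (Atp6v1c1 and Atp6v1e1).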
